A study of Drosophila melanogaster with 12 samples.

Results

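The genes described here are 6 neighbours of para on the X chromosome of Drosophila melanogaster, namely disco, Had1, CG4239, Axs, Septin4 and CG4678. They were chosen by their measured differences, as genes near para that had differed in some comparison of these arrays. These differences are therefore given as description, and calls or adjusted p values printed with them are no test of the 6 genes. Each of the 6 genes has 1 probe set that names it alone, and all 6 passed the filter on dim probe sets, as did 11261 probe sets in all, of which 9577 name 1 located gene and cover 8578 genes. The data are the deposited signal intensities of 12 Affymetrix arrays of RNA from whole heads, in 4 groups of 3 arrays. Shu_50 is the mutant Shu given 50 mM, CS_50 is the wild type CS given lithium at 50 mM, and Shu_0 and CS_0 are the same stocks left untreated. The drug of Shu_50 is unnamed in its labels and is read here as lithium from the series title. The labels do not give the flies' sex or age, the length of treatment, the history of the stocks, or whether the 3 arrays of a group came from separate cultures, so errors cover only the spread between these arrays.

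The gene annotation lists Shu, for Shudderer, among the names of para, which encodes the voltage-gated sodium channel that carries action potentials in fly neurons. Genes that lie close together on a chromosome are seldom separated by recombination. A stock that carries a mutation therefore usually also carries the flanking stretch of the chromosome on which the mutation arose, with whatever sequence variants that stretch holds, unless it has been crossed out. With 1 mutant and 1 wild type stock, the mutation, the flanking stretch and the rest of the stock's background cannot be told apart. Shu was compared with CS on lithium and without it, through pairs of groups that share no array.

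In release 6 of the genome, para spans X:16455027-16533096. On the side of lower coordinates lie disco (X:16210598-16216750, 238 kb away), Had1 (X:16306912-16308667, 146 kb) and CG4239 (X:16385278-16388702, 66.3 kb). On the other side Axs (X:16680089-16683895, 147 kb), Septin4 (X:16684216-16695173, 151 kb) and CG4678 (X:16696131-16711145, 163 kb) follow each other directly, with 320 bp between Axs and Septin4 and 957 bp between Septin4 and CG4678. Had1 overlaps CG3679 and the antisense gene asRNA:CR45485, Axs overlaps sing, and CG4678 holds 5 other genes within its span. Where in each gene the probes lie was not used here.

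The 6 genes did not move one way in Shu heads. Had1 and CG4239 were higher and disco, Septin4 and CG4678 lower. Axs was slightly lower on lithium and slightly higher without it, with overlapping arrays at both doses. Calls below are limma's, with p values adjusted by Benjamini and Hochberg's method over all 11261 probe sets and a threshold of 0.05. On lithium 1 of the 6 was called between the genotypes, Had1, where 0.506% of all probe sets were. Without lithium 4 of the 6 were called, disco, Had1, Septin4 and CG4678, where 5.07% of all were. Axs was called for lithium in the mutant, where 1.86% of all were. For lithium in the wild type 1.62% of all were called, and these calls chose no gene. CG4239 was called in none of these, but only for the genotypes averaged over both doses (7.92% of all) and for lithium averaged over both genotypes (4.13% of all). The averaged genotypes called 5 of the 6, all but Axs, and averaged lithium called 3, CG4239, Axs and CG4678. For Shu_50 against CS_0, 5 of the 6 were called, all but CG4239, where 6.11% of all were. Arrays did not overlap between the genotypes for 5 of the 6 on lithium (18.9% of all) and 4 of the 6 without it (23.2% of all), nor between the doses for 4 of the 6 in the mutant (15.8% of all) and 4 of the 6 in the wild type (19.1% of all). Because these differences chose the genes, nothing is read from the counts. The other settings named below refit the arrays that chose the genes. How often a call was kept shows its dependence on the processing and is not independent support. Septin4 lay just inside the threshold without lithium, at an adjusted p of 0.0488, and the nearest gene outside it within 500 kb of para was CG13004 at 0.0544. Differences below are in log2(intensity + 6.26) with limma's SE.

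The transcription factor disco has zinc fingers and is named for the larval visual nerve, which in mutants fails to connect to the brain. Its probe set had intensities of 112, 104 and 103 in Shu_50, against 155, 138 and 166 in CS_50. Untreated, it had 95.0, 92.0 and 95.5 in Shu_0, against 142, 136 and 199 in CS_0. All Shu arrays lay below all CS arrays at both doses. The log2 difference was -0.49 ± 0.12 on lithium and -0.70 ± 0.12 without it (SE, n = 3 per group). The larger of these rests in part on CS_0 replicate 3, the array of highest disco, without which it was -0.53. The untreated call was made in 14 of 15 other settings and was lost without CS_0 replicate 3 and Shu_0 replicate 1 together. Between doses the 3 Shu_50 arrays lay above the 3 Shu_0 arrays by 0.17 ± 0.12, and the CS groups overlapped (-0.04 ± 0.12).

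Had1, for which the annotation lists CRYL1 among its names, belongs to the hydroxy acid dehydrogenases. It was bright on every array. Its probe set had intensities of 4643, 4477 and 4706 in Shu_50, against 3075, 2535 and 2935 in CS_50. Untreated, it had 3856, 3566 and 3857 in Shu_0, against 2792, 2171 and 2797 in CS_0. No Shu array overlapped a CS array at either dose. Had1 was 1.62-fold higher in Shu on lithium (log2 0.70 ± 0.09) and 1.46-fold higher without it (0.55 ± 0.09). The call on lithium was made in 14 of 14 other settings. The untreated call was made in 14 of 15 and was lost without the intensity trend. In order of level the groups ran Shu_50, Shu_0, CS_50 and CS_0, and the last pair overlapped. The lithium difference was 0.29 ± 0.09 in the mutant, where the arrays did not overlap, and 0.14 ± 0.09 in the wild type.

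CG4239, to which no role is given here, was somewhat higher in Shu. Its probe set had intensities of 474, 530 and 519 in Shu_50, against 436, 429 and 446 in CS_50. Untreated, it had 541, 553 and 603 in Shu_0, against 488, 484 and 543 in CS_0. The genotypes were apart on lithium (0.21 ± 0.07), and without it (0.16 ± 0.07) CS_0 replicate 3 lay just above the lowest Shu_0 array. On lithium both genotypes lay below their untreated groups without overlap, by -0.15 ± 0.07 in the mutant and -0.20 ± 0.07 in the wild type. The group means of Shu_50 (508 ± 29.6) and CS_0 (505 ± 32.7; SD, n = 3 each) were within the spread of the arrays.

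**Figure D1:**
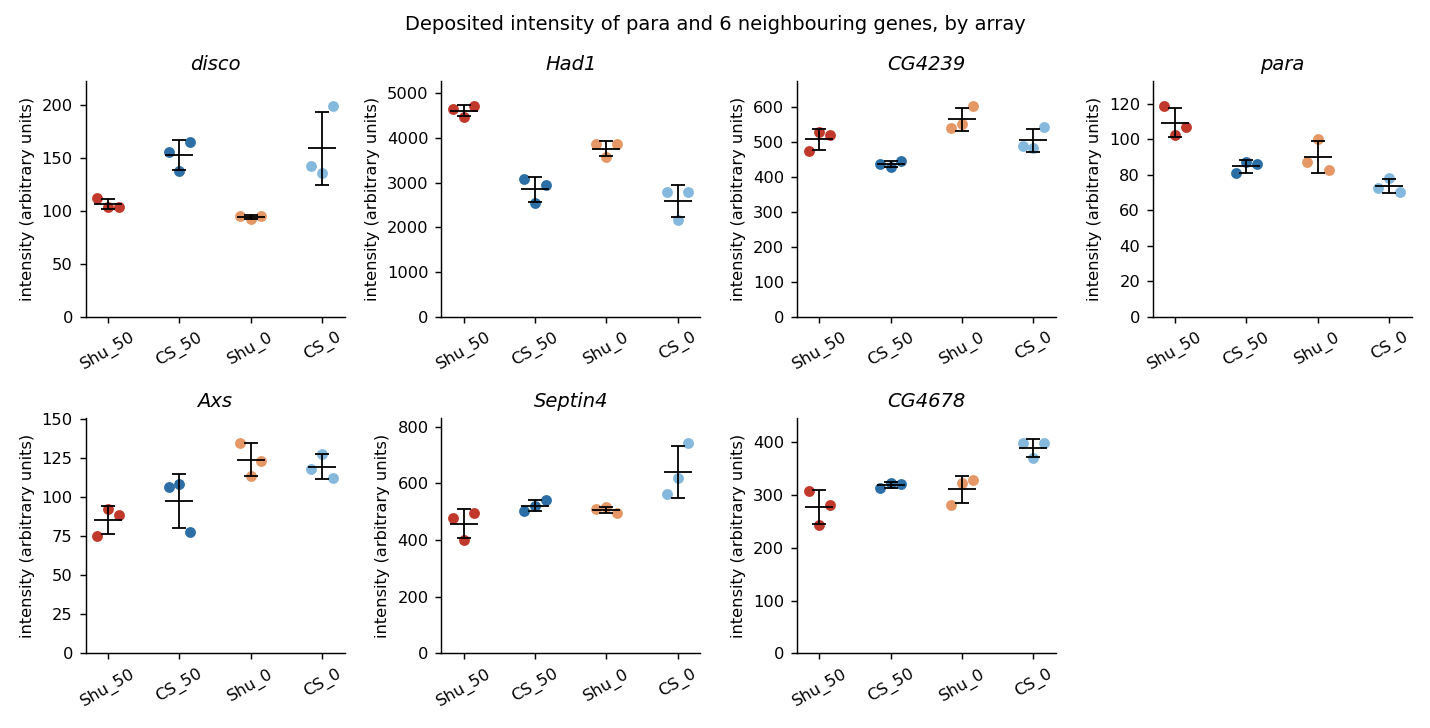
Deposited intensity (arbitrary units, axes from 0) of para and its 6 neighbours on each of the 12 arrays, in 4 groups of 3, with points for arrays and bars for the mean ± SD. Had1 lies higher and disco lower in Shu than in CS at both doses without overlap, and Axs separates the doses rather than the genotypes.

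Axs, for abnormal X segregation, encodes a membrane protein of the anoctamin family that surrounds the meiotic spindle in the female germline. In heads its probe set had intensities of 75.0, 92.0 and 88.6 in Shu_50, against 106, 108 and 77.4 in CS_50. Untreated, it had 135, 114 and 123 in Shu_0, against 118, 128 and 112 in CS_0. The genotypes overlapped at both doses, with differences of -0.17 ± 0.12 on lithium and 0.05 ± 0.12 without it. The lithium groups lay below the untreated ones without overlap in both genotypes, by -0.51 ± 0.12 in the mutant and -0.29 ± 0.12 in the wild type. The difference in the wild type was -0.14 without CS_50 replicate 3. The call in the mutant was made in 6 of 15 other settings and was lost without Shu_0 replicate 1, 2 or 3 or Shu_50 replicate 1 or 3. As the gene is known from the ovary, ovary and chorion markers stand beside it. Of the 5 markers 2 lay lower in Shu_50 than in Shu_0 without overlap, Cp36 and dhd, and the summed intensity of all 5 was 46.1 to 51.4 in Shu_50 and 75.7 to 274.6 in Shu_0. The Shu_50 means of Cp36 and dhd, 6.81 and 6.85, lie below the filter on dim probe sets (an intensity of 11.5). Cp15, which is in the sum, did not pass that filter. In the wild type the summed intensity was 45.0 to 67.8 in CS_50 and 29.9 to 222.0 in CS_0, which overlapped. Other marker lists moved with lithium as well. The summed intensity of 4 fat body markers was 19777 to 21587 in CS_50 and 25486 to 28264 in CS_0, with 3 of the 4 lower without overlap, and 19928 to 25600 in Shu_50 and 24541 to 30750 in Shu_0, which overlapped, with apolpp and Tsf1 lower without overlap. The sums of 3 photoreceptor and 2 glia markers were also lower in CS_50 than in CS_0 without overlap, at 22152 to 22654 against 25008 to 27263 and at 4476 to 4767 against 4799 to 5342, and overlapped between Shu_50 and Shu_0. Taken singly, Arr1, Arr2 and Gs2 were lower in CS_50 without overlap, while trp and repo overlapped. The glia sum mostly follows Gs2, with means of 4237 in CS_50 and 4595 in CS_0, beside 430 and 449 for repo. The part of these markers in the lithium differences of Axs and of CG4239, Septin4 and CG4678 was not tested.

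Septin4 encodes a septin, one of the GTP-binding proteins that assemble into filaments under the cell membrane. Its probe set had intensities of 476, 399 and 495 in Shu_50, against 503, 518 and 541 in CS_50. Untreated, it had 508, 517 and 495 in Shu_0, against 563, 619 and 742 in CS_0. The genotypes were apart at both doses, though the gap on lithium was only that between 495 and 503. The difference was -0.19 ± 0.09 on lithium and -0.33 ± 0.09 without it. Each leans on 1 array, since it was -0.10 on lithium without Shu_50 replicate 2 and -0.22 untreated without CS_0 replicate 3. CS_0 stood above the other 3 groups, and CS_50 was lower than CS_0 without overlap (-0.29 ± 0.09), while the mutant's groups overlapped (-0.15 ± 0.09). Without those same arrays the lithium difference was -0.06 in the mutant and -0.18 in the wild type. The untreated genotype call was made in 4 of 15 other settings and was lost without any array of the contrast other than CS_0 replicate 1.

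CG4678, predicted from its sequence to be a zinc carboxypeptidase, showed nearly the same differences. Its probe set had intensities of 308, 244 and 281 in Shu_50, against 313, 323 and 321 in CS_50. Untreated, it had 281, 324 and 328 in Shu_0, against 398, 370 and 399 in CS_0. Again CS_0 stood above the other groups and the genotypes did not overlap at either dose. The genotype difference was -0.20 ± 0.08 on lithium, or -0.11 without Shu_50 replicate 2, and -0.32 ± 0.08 without lithium. The lithium difference was -0.16 ± 0.08 in the mutant, or -0.07 without the same array, and -0.28 ± 0.08 in the wild type. The untreated genotype call was made in 7 of 15 other settings and was lost without CS_0 replicate 1 or 3 or Shu_0 replicate 1 or 3.

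**Figure D2:**
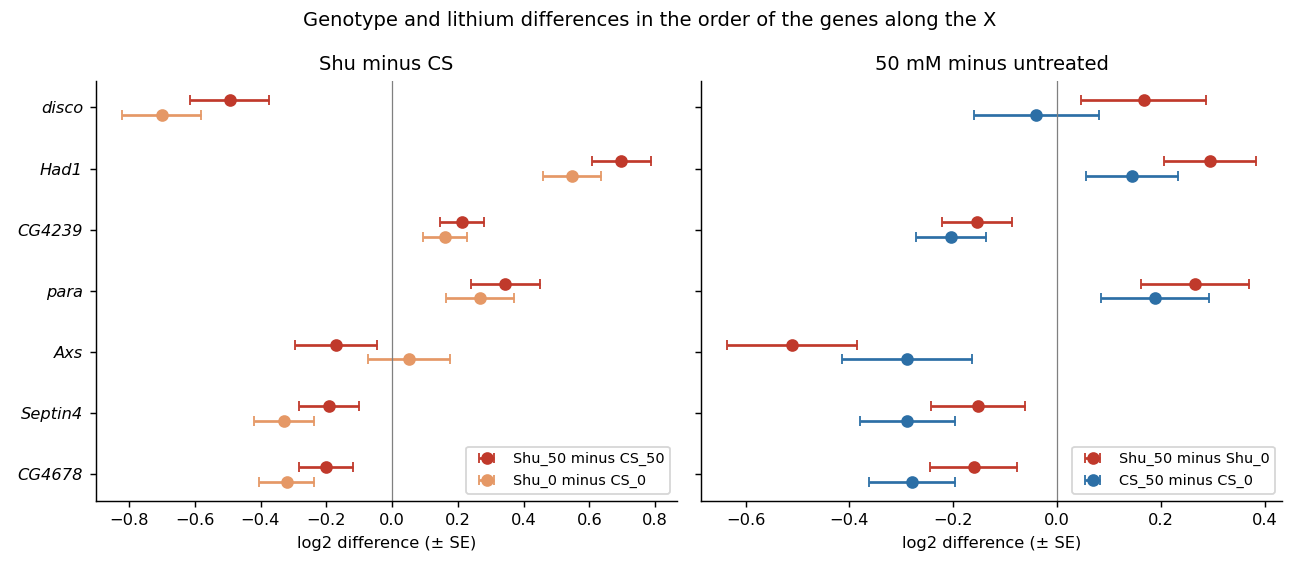
Log2 differences ± limma's SE (x axis) for the 7 genes in the order in which they lie on the X (y axis), Shu minus CS at each dose on the left and 50 mM minus untreated in each genotype on the right. In order along the chromosome disco is lower in Shu, Had1, CG4239 and para are higher, and Septin4 and CG4678 are lower. Axs, between para and Septin4, lies near 0 without lithium (0.05) and at -0.17 on it. Septin4 and CG4678 have almost the same value in all 4 comparisons.

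Over the 12 arrays the log2 values of Septin4 and CG4678 correlated at 0.86, the highest r among the 7 genes with para included. Their deviations from the group means correlated at 0.44, over the same 12 arrays. Axs, which lies closer to Septin4 than CG4678 does, correlated with it at 0.36, and the deviations at -0.40. Had1 and para correlated at 0.78 and their deviations at -0.54. These values share the arrays and their scaling and are given as a description.

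**Figure D3:**
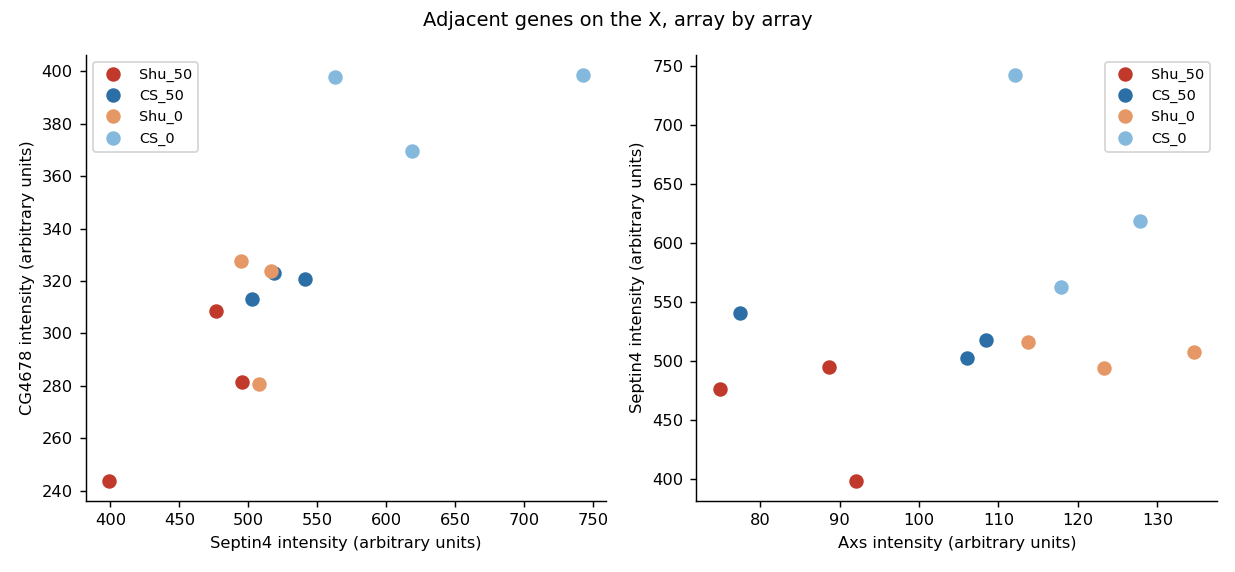
Intensity of adjacent genes on each of the 12 arrays (arbitrary units; axes do not start at 0), CG4678 against Septin4 on the left and Septin4 against Axs on the right, coloured by group. The 3 CS_0 arrays stand apart at the top right of the left panel, and the right panel shows no such line.

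The level of para itself, from its single probe set, was 118, 102 and 107 in Shu_50, against 80.7, 87.4 and 85.8 in CS_50. Untreated, it was 87.1, 99.9 and 82.8 in Shu_0, against 72.6, 77.9 and 70.1 in CS_0. The genotypes did not overlap at either dose, by 0.34 ± 0.10 on lithium (adjusted p = 0.180 in limma) and 0.27 ± 0.10 without it (adjusted p = 0.156), and neither difference was called. Averaged over both doses the genotype difference of para was called, at 0.31 ± 0.07 (adjusted p = 0.0175 in limma), as were 7.92% of all probe sets. Since the labels do not say what the mutation does to the transcript, the level does not check the genotype.

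For disco, Had1, Septin4 and CG4678, 4 of the 6 genes, the arrays of the genotypes were apart in the same direction at both doses. Over all probe sets this held for 6.27%, and since the genes were chosen by these comparisons nothing is read from their count. On lithium only Had1 of the 4 was called, and the adjusted p of the other 3 lay between 0.0770 and 0.437. The change of the genotype difference with the dose was not called in any of the 6 and ran from -0.22 ± 0.18 for Axs to 0.21 ± 0.17 for disco (on lithium minus without it).

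Genes next to the 6, or overlapping them, gave differences of either sign, and those of dim probe sets had a large SE. Neither annotated neighbour of disco has a probe set of its own. CG3632 and CG9915, on either side of Had1, gave 0.01 ± 0.09 and -0.20 ± 0.12 on lithium, and 0.18 ± 0.09 and 0.05 ± 0.12 without it. CG9992 and TH1, a subunit of the negative elongation factor of RNA polymerase II, flank CG4239 and gave 0.11 ± 0.13 and 0.15 ± 0.15 on lithium, and 0.05 ± 0.13 and 0.22 ± 0.15 without it. The peptidase gene CG9676, within the span of CG4678, gave -0.04 ± 0.06 on lithium and -0.09 ± 0.06 without it. CG4653, also within that span, gave -0.42 ± 0.27 and -0.45 ± 0.27, and CG13008, the next gene, gave 0.21 ± 0.33 and -0.52 ± 0.33 from its tested probe set. The gene sing, which overlaps Axs, gave -0.05 ± 0.27 and 0.44 ± 0.27. None of these genes was called between the genotypes. The paralog disco-r, 306 kb from para, gave -0.20 ± 0.12 on lithium and -0.11 ± 0.12 without it from its tested probe set, neither called (adjusted p = 0.550 and 0.682 in limma).

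Relatives of the 6 that lie elsewhere were measured on the same arrays. Had2, on chromosome arm 2R, was also higher in untreated Shu heads, at a mean intensity of 266 in Shu_0 against 184 in CS_0 (0.52 ± 0.10, adjusted p = 0.00996 in limma). On lithium it had 205 in Shu_50 against 175 in CS_50 and was not called (0.22 ± 0.10, adjusted p = 0.434). Neither Septin1, on the X 4825 kb from para, nor Septin2, on 3R, was called between the genotypes. Their differences ran from -0.14 to 0.27 over 3 probe sets and both doses. The anoctamin subdued (-0.14 ± 0.08 on lithium and -0.16 ± 0.08 without it) and the carboxypeptidase gene svr (-0.08 ± 0.23 and -0.44 ± 0.23) were not called either. The adjusted p values of subdued and svr in limma lay between 0.297 and 0.925.

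The stretch around para was then taken by position alone. Within 500 kb on either side the annotation lists 154 genes besides para, of which 98 had a tested probe set of their own, 104 probe sets in all. On lithium 3 of the 104 were called between the genotypes, or 2.88% (Had1, CanA-14F and RSG7), beside 0.506% of all probe sets. Without lithium 9 were called, or 8.65%, beside 5.07%. Since 1 of the 3 and 4 of the 9 are genes chosen for these calls, the counts without the 6 genes are given as well, 2 of 98 on lithium and 5 of 98 (5.10%) without it. The median size of the log2 difference was 0.13 on lithium, beside 0.11 over all probe sets, and 0.17 without lithium, beside 0.13. The numbers higher and lower in Shu were balanced, 54 and 50 at each dose. These medians and numbers include the 6 chosen genes and were not taken without them, so nothing is read from the medians.

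The called neighbours outside the 6 genes were CanA-14F, RSG7, CG4789 and DENR. CanA-14F, a catalytic subunit of the phosphatase calcineurin, lies 27.6 kb from para (X:16560684-16587172) and gave opposite directions from different probes. One probe set was higher in Shu by 1.01 ± 0.15 on lithium and 1.02 ± 0.15 without it (adjusted p = 0.00320 and 0.00224 in limma), with means of 87.6 in Shu_50 against 40.6 in CS_50 and of 73.1 in Shu_0 against 33.1 in CS_0. The other was lower in Shu without lithium (-0.38 ± 0.08, adjusted p = 0.0150) and gave -0.30 ± 0.08 on it (adjusted p = 0.133). RSG7, a regulator of G protein signalling 305 kb from para (X:16838173-16844433), was lower in Shu at both doses, at a mean of 73.2 in Shu_50 against 124 in CS_50 and of 61.0 in Shu_0 against 102 in CS_0. Its differences were -0.69 ± 0.15 and -0.68 ± 0.15 (adjusted p = 0.0490 and 0.0160 in limma). CG4789, from 1 of its 3 tested probe sets (0.35 ± 0.10, adjusted p = 0.0474), and DENR, a factor of translation reinitiation (0.27 ± 0.07, adjusted p = 0.0472), were higher without lithium, and on lithium they gave 0.03 ± 0.10 and -0.02 ± 0.07.

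**Figure D4:**
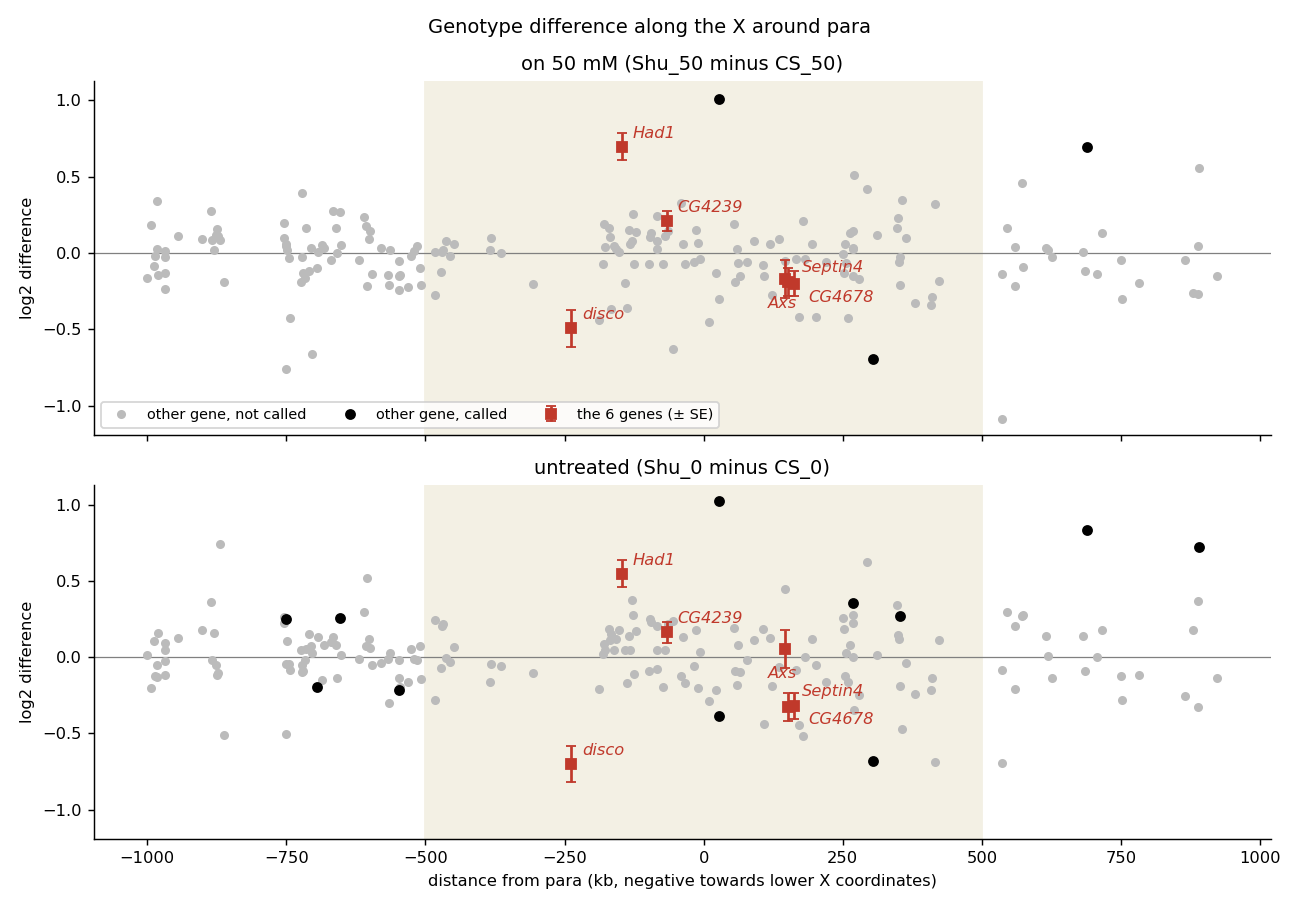
Log2 difference Shu minus CS (y axis) against the distance of each gene from para in kb (x axis), on 50 mM above and untreated below, for tested probe sets within 1000 kb, with the 500 kb window shaded. The 6 genes carry limma's SE, and black points are other genes called at an adjusted p under 0.05, of which CanA-14F (1.01 and 1.02) lies highest within the window.

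Shares of probe sets alike at both doses were taken over the same windows. The genotype difference had the same sign on lithium and without it for 50 of 65 probe sets within 250 kb (76.9%) and 72 of 104 within 500 kb (69.2%), beside 62.8% over all probe sets. With the 6 chosen genes left out the counts were 45 of 59 (76.3%) and 67 of 98 (68.4%). Chromosome 4 had a like share, 57 of 79 (72.2%), so such a share was not seen around para alone. The arms 2L, 2R, 3L and 3R lay lower, between 61.0% and 64.1%, as did the X beyond 2000 kb (62.3%). These shares were not tested against each other. Arrays apart in the same direction at both doses were seen for 13 of 104 probe sets within 500 kb (12.5%), of which 4 belong to the 6 genes, and for 9 of 98 (9.18%) without them. Among these 9 were nonA, an RNA-binding protein (0.24 on lithium and 0.21 without it from 1 of its 3 tested probe sets), the splicing factor U2af50 (0.11 and 0.25), the cyclophilin Cyp1 (0.15 and 0.14), CG9902 (-0.45 and -0.28) and CG13004 (0.42 and 0.62). None of these 5 was called at either dose by limma, and they are named after their values were seen.

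Within 2000 kb, arrays were apart in the same direction at both doses for 34 of 333 probe sets (10.2%), or for 30 of 327 (9.17%) without the 6 genes. On the rest of the X this held for 60 of 1256 (4.78%) and on the autosomes for 508 of 7987 (6.36%). In steps of 1 Mb from the start of para, the share was 12.3% and 11.9% in the outer and inner steps on the side of lower coordinates and 14.1% in the first step on the other side. These steps count the chosen genes. The inner step holds disco and Had1, and the first step on the other side holds Septin4, CG4678 and para, all apart at both doses. Shares of the steps without them were not taken, so no peak is read from them. In the next step on the side of higher coordinates the share was 2.82% (2 of 71). The highest share of any step, 14.3%, was that of the step farthest from para on the side of lower coordinates, with only 2 of 14 probe sets, and the other steps with at least 20 probe sets lay between 1.47% and 10.3%. These steps were looked at after the values were seen and were not tested against each other.

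On lithium the calls on the X lay mostly in this stretch. Of the 11 probe sets called there between the genotypes, 9 were within 2000 kb of para, 9 of 333 or 2.70%. The 9 include Had1, chosen for such calls, and without the 6 genes the count was 8 of 327 (2.45%). On the rest of the X 2 of 1256 (0.159%) were called and on the autosomes 37 of 7987 (0.463%). Without each of the 6 arrays of lithium in turn there were 5 or 6 within the stretch and 1 to 5 beyond it, with 5 and 5 without CS_50 replicate 1, 6 and 5 without Shu_50 replicate 3, and 5 and 1 without Shu_50 replicate 1 or 2. Without lithium 23 of 333 (6.91%) were called within 2000 kb, or 19 of 327 (5.81%) with the 6 genes left out. On the rest of the X 50 of 1256 (3.98%) were called and on the autosomes 418 of 7987 (5.23%). The counts of 23 and 50 moved with the setting, to 7 within 2000 kb and 6 beyond it without the intensity trend. They were 4 and 2 without CS_0 replicate 3 and Shu_0 replicate 1. Leaving out CS_0 replicate 3 alone gave 10 and 14, Shu_0 replicate 1 alone 10 and 12, and Shu_0 replicate 3 alone 13 and 27. Leaving out CS_0 replicate 1 gave 15 and 47.

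**Figure D5:**
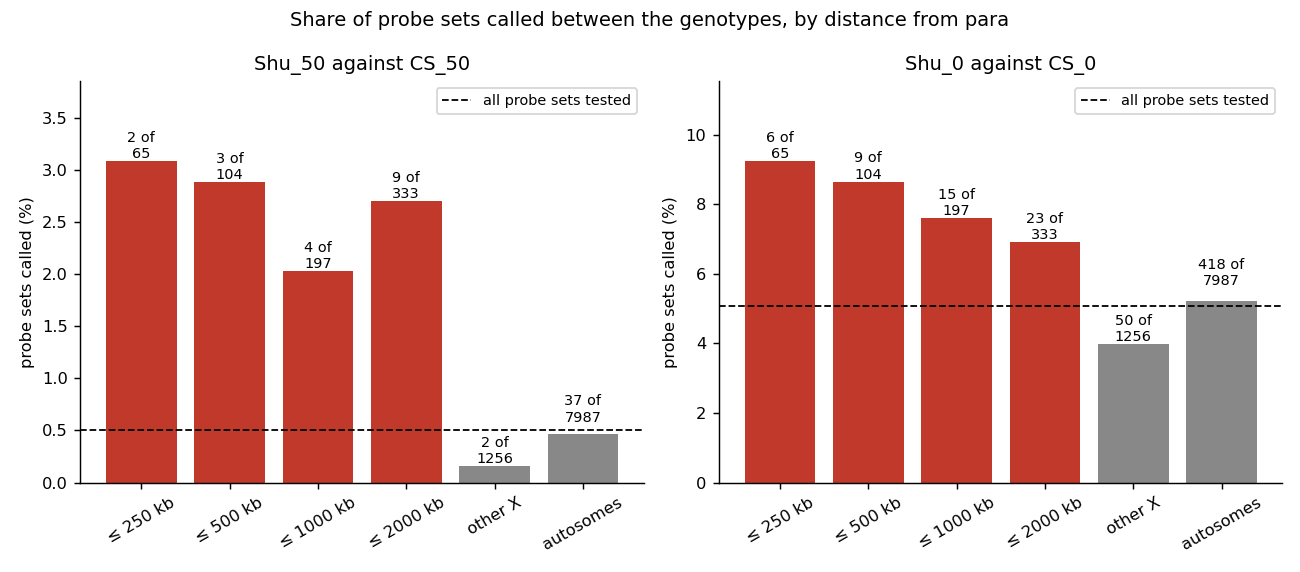
Share of probe sets called between the genotypes (y axis, percent, from 0) within 4 distances of para, on the rest of the X and on the autosomes, with the count of called and tested probe sets on each bar and the share over all probe sets as a dashed line. On lithium the 4 bars near para stand between 2.03% and 3.08%, above 0.159% for the rest of the X. The 4 distances are nested, and the bars include the genes chosen for their calls.

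The 9 genes called on lithium within 2000 kb were Had1, CanA-14F, RSG7 and 6 that lie farther out, named here after their values were seen. CG5172, 688 kb away on the side of higher coordinates, had means of 959 in Shu_50 against 591 in CS_50 and of 1108 in Shu_0 against 617 in CS_0 (0.69 ± 0.08 on lithium, adjusted p = 0.000252 in limma). The other 5 lie between 1014 and 1774 kb away on the side of lower coordinates. Higher in Shu on lithium were Cngl, related to cyclic nucleotide-gated channels (0.97 ± 0.17), CG9512 (0.51 ± 0.07) and ND-B18, a subunit of mitochondrial complex I (0.27 ± 0.05). Lower were CG5321 (-0.46 ± 0.09) and Rab3-GEF, an exchange factor for the synaptic vesicle protein Rab3 (-0.32 ± 0.06). Without lithium each of the 9 had the same direction as on it, and 7 were called there too, CG5321 and Cngl being the exceptions.

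For each of the 6 genes, the 5 genes whose log2 values were most like it over the 12 arrays were taken, among 8578. For disco they were Rab3-GEF (Pearson r = 0.96), Ptp36E, XNP, CanA-14F through the probe set lower in Shu (0.94) and NaPi-III (0.93). For Had1 they were CG6067 (0.95), serp, CG9512 (0.93), ZC3H3 and Fbp2 (0.93). For CG4239 they were Acp65Aa (0.93), Nca, Rab32, CG14770 and psh (0.89). For Axs they were Pgant3 (0.92), CG15202, Nepl21, Cpr49Ag and Kal1 (0.86). For Septin4 they were Hnf4 (0.93), sdk, CG16700, Fife and lqf (0.91). For CG4678 they were the glutamate transporter gene Eaat2 (0.93), Hydr2, qm, CG31626 and CG8301 (0.91). Of these 30 genes 9 lie on the X and 5 within 2000 kb of para, namely Rab3-GEF, CanA-14F, CG9512, psh and CG16700. Among the 50 most alike for each gene, 19.0% lie on the X and 6.33% within 2000 kb, beside 16.2% and 3.44% of all genes compared. The 6 genes were chosen by differences on these same arrays, and a list of 50 may hold others of the 6. Nothing is therefore read from these shares.

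Array medians lay between 24.4 and 26.3 intensity units and replicates of a group correlated at 0.985 to 0.989. On the first principal component the outermost arrays were replicate 3 of CS_0 and replicate 1 of Shu_0, and without both the untreated contrast had 31 calls in place of 571, 2 of them within 500 kb of para in place of 9. Of the head markers Arr1 and Arr2 had group means from 7392 to 13513, while among the 4 neuron markers nSyb and elav lay between 362 and 591 and brp and para between 62.2 and 109, and repo lay between 404 and 449. By comparison the 5 ovary and chorion and 4 testis markers were dim, with no group mean above 49.8. On lithium the summed intensity of 3 photoreceptor markers was 22875 to 28123 in Shu_50 and 22152 to 22654 in CS_50, and without lithium that of 3 muscle markers was 1644 to 1862 in Shu_0 and 1864 to 2193 in CS_0. Of the photoreceptor markers 2, Arr1 and Arr2, were higher in Shu_50 without overlap, and of the muscle markers 1, up, was lower in Shu_0. None of these defining markers was at 0, and their part in the genotype differences was not tested. In whole heads fewer cells of a type and less RNA per cell cannot be told apart.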

How the data were processed

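The authors' deposited values are one intensity per probe set for each of 12 Affymetrix arrays of whole heads. Per the labels the labelling followed the standard Affymetrix protocol, and the software that made the intensity is not given in the sources used here. Each column had a mean of 150.005 after trimming 2% at each end, so the deposited intensity was already scaled and was kept.

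Values were taken as log2(intensity + 6.26), the offset being the 25th percentile over the 18769 probe sets that are not controls. The 11261 with a mean log2 value at or above the 40th percentile (an intensity of 11.5) were tested. Genes came from the platform annotation where a probe set names exactly 1 gene, matched by Entrez number to RefSeq's table of release 6 (13543 of 13646 matched). A model with 1 mean per group was fitted by limma 3.58.1 in R 4.3.3, with variances moderated along an intensity trend (eBayes), to all 12 arrays with 8 residual degrees of freedom, two-sided, with Benjamini-Hochberg adjustment over the 11261. The procedure was tested on simulated data. The number of arrays limits the precision.

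The 6 genes, the windows and the lists were chosen with earlier results of these data known. Genes were named by rule: the 6 and para, those within 500 kb called between the genotypes, genes next to the 6, fixed family relatives and the 5 most alike. CS_50 replicate 2 has its number from the title, as its description gives sample 1.

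Same-numbered arrays of compared groups had correlations of -0.065 to 0.092 between their deviations from the group means, and the numbers were not taken to pair the arrays. The alternatives changed the normalization (quantile), the offset (a smaller and a larger one), the filter (none, or the 60th percentile), the trend (none), the arrays fitted (the contrast's 6 only, or each array left out in turn), the design (a replicate block) and the window sizes. Plots were made in matplotlib 3.10.9 (Python 3.11.15).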

Additional observations from a re-analysis of the deposited data

How the results depend on the processing

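Of 354 log2 differences of the 6 genes recomputed under the alternatives, 5 changed sign, all for Axs between untreated genotypes or disco for lithium in the wild type, neither of them called. The difference moved by at least 1 SD in 4. In the untreated genotype contrast 571 probe sets were called, 59 without the intensity trend, 324 with its 6 arrays alone, 31 without CS_0 replicate 3 and Shu_0 replicate 1 (a setting chosen after seeing the data), and 129 to 691 without each array in turn. Within 500 kb of para there were 9, with 2, 5, 2 and 3 to 12 in these settings, and 15 and 23 within 1000 and 2000 kb. Within 2000 kb the 23 became 7, 14, 4 and 10 to 24. Leaving out CS_0 replicate 3, Shu_0 replicate 1 or Shu_0 replicate 3 gave 3, 3 and 5 within 500 kb. On lithium the genotype contrast had 57 calls, 25 without the trend, 100 with a replicate block and 30 to 67 without each array. Within 500 kb there were 3 (2 or 3 without each array, and 9 within 2000 kb), and the 9 within 2000 kb became 4 without the trend and 5 or 6 without each array. Lithium had 182 calls in the wild type, 118 without the filter, 44 without the trend, 89 without those 2 arrays and 78 to 159 without each array, and 209 in the mutant, 91 without the trend and 127 to 238 without each array. The 1 call of the interaction was lost (0 calls) with no filter, the 60th percentile, no trend and quantile normalization, was 2 with a replicate block, and was 0 or 1 without each array, with 758 at an unadjusted p under 0.05 by limma. With the block, calls on the X on lithium were 11 within 2000 kb of para and 5 beyond it, in place of 9 and 2, and the block itself moved no other count of this paragraph by more than 1.5 times. Beyond 2000 kb on the X the 2 calls on lithium became 1 with no filter, no trend or the 6 arrays alone, and the 50 without lithium became 6 with no trend, 27 with the 6 arrays, 2 without both arrays and 12 to 69 without each array. The cause of these changes was not tested.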
